A study of Mus musculus with 6 samples.

Results

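The subunits of the oxidative phosphorylation machinery were followed in retinas of Yap cKO mice. They were taken by symbol from the table of gene counts, as protein-coding genes named Nduf, Sdh, Uqcr, Cox4 to Cox8, Atp5 or mt- with pseudogenes left out, which gave 98 of the 55421 genes listed. Of these, 85 are encoded in the nucleus and 13 on the mitochondrial genome. RNA of whole retinas was sequenced from 6 mice aged 2 months. The 3 control mice were Yapfl/fl without Cre (animals YR612, YR613 and YR615) and the 3 Yap cKO mice were Yapfl/fl;RaxCreERT2 (animals YR711, YR713 and YR714). Both groups received 4-hydroxytamoxifen (4OH-T) at postnatal days 10 and 14, so the controls share the floxed alleles and the drug and lack only the Cre. The Cre driven by the Rax locus acts in Müller glia and in the non-pigmented epithelium of the ciliary body, so in RNA of the whole retina a lower level of a gene can mean fewer cells of a type or less RNA per cell, and these cannot be told apart.

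Oxidative phosphorylation is the chain of enzymes in the mitochondrial inner membrane that moves electrons from NADH and succinate to oxygen (complexes I to IV) and uses the resulting proton gradient to make ATP (complex V). Complexes I, III, IV and V are mosaics of proteins imported from the cytosol and a few made inside the mitochondrion, whereas complex II is built from nuclear genes alone. Photoreceptors, which hold most of the mitochondria of the retina in their inner segments, are among the most oxygen-demanding cells of the body.

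Libraries held between 24261799 and 35067068 counts. Yap1 itself was at 9.48, 9.52 and 9.83 TPM (counts scaled by exonic length and by library) in the control retinas and at 3.99, 3.76 and 3.94 TPM in the Yap cKO retinas (log2 fold change -1.36, edgeR quasi-likelihood test, adjusted p = 0.000282). Counts of Xist marked 1 of the 3 control and 2 of the 3 Yap cKO retinas as female. Over the 16575 genes tested, 247 (1.49%) passed an adjusted p of 0.05, 83 of them (0.501%) higher and 164 (0.989%) lower in the Yap cKO retinas. Relative expression followed gene length differently from retina to retina. Spearman's rho of relative expression with exonic length, across genes that are not independent replicates, was -0.413, 0.172 and -0.405 in control animals YR612, YR613 and YR615. It was 0.396, 0.385 and -0.151 in Yap cKO animals YR711, YR713 and YR714. Since most subunit genes are short (median 1569 bases, against 4132 bases over all tested genes), the members and each complex are set beside genes of like length.

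The nuclear-encoded subunits were abundant. Averaged over the 6 retinas, 66 of the 85 stood at 100 TPM or more, 11 of them at 500 or more, a further 15 lay between 5 and 100 TPM and 4 lay under 1 TPM. These 4 were not tested for want of counts. Cox6a2 and Cox7b2, isoforms of muscle and of testis, had at most 3 and 4 counts in any retina. The testis isoform Cox8c had 0 counts in each, which allows up to 3 counts per retina (counting error only). The second of 2 gene entries that carry the name Atp5o also had 0 counts in each. That entry shares 76.8% of its stretches of read length with other gene entries at the same place, so its 0 sets no bound on its level. The highest levels in complexes II and V belonged to Sdha, the flavoprotein that oxidizes succinate, and to Atp5b, the catalytic beta subunit of ATP synthase. In complexes I, III and IV the mitochondrially encoded mt-Nd1, mt-Cytb and mt-Co1 stood highest among genes with a usable level, which 5 mitochondrial genes lack. The genes mt-Nd3, mt-Nd4 and mt-Co1 share 98.1%, 62.5% and 57.0% of their stretches of read length with other genes. The counting could leave out such reads, so the TPM of these genes may be too low.

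Summed over all nuclear-encoded subunits, the level was 24481, 21785.5 and 24735.5 TPM in control animals YR612, YR613 and YR615 and 20329, 20393 and 23616 TPM in Yap cKO animals YR711, YR713 and YR714. The groups overlapped, because Yap cKO animal YR714 lay above control animal YR613. The means were 23667 ± 1635 and 21446 ± 1879 TPM (SD, n = 3 each), a ratio of 0.906. The mitochondrially encoded subunits took the opposite order, with 66263, 63769.9 and 73837 TPM in the controls and 85609, 78084 and 74368 TPM in the Yap cKO retinas. Here the groups did not overlap, although the lowest Yap cKO retina (YR714) and the highest control (YR615) were close. As a share of all counts the groups overlapped, with 2.25%, 2.03% and 2.44% in the controls and 2.65%, 2.42% and 2.41% in the Yap cKO retinas. They also overlapped over the mitochondrial genes that share few words with other genes, where control animal YR615 (51659.8 TPM) lay above YR714 (51235 TPM). The means of the full sums were 67956 ± 5243 and 79354 ± 5727 TPM, a ratio of 1.168. The ratio of mitochondrially to nuclear-encoded TPM was 2.71, 2.93 and 2.99 in the controls and 4.21, 3.83 and 3.15 in the Yap cKO retinas. The mitochondrial sums hold almost no counts of the 5 genes without a usable level, so these sums and the ratios may be too low as levels. Animal YR714 was again the Yap cKO retina nearest to the controls, as it was in the relation of expression to gene length.

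**Figure D1:**
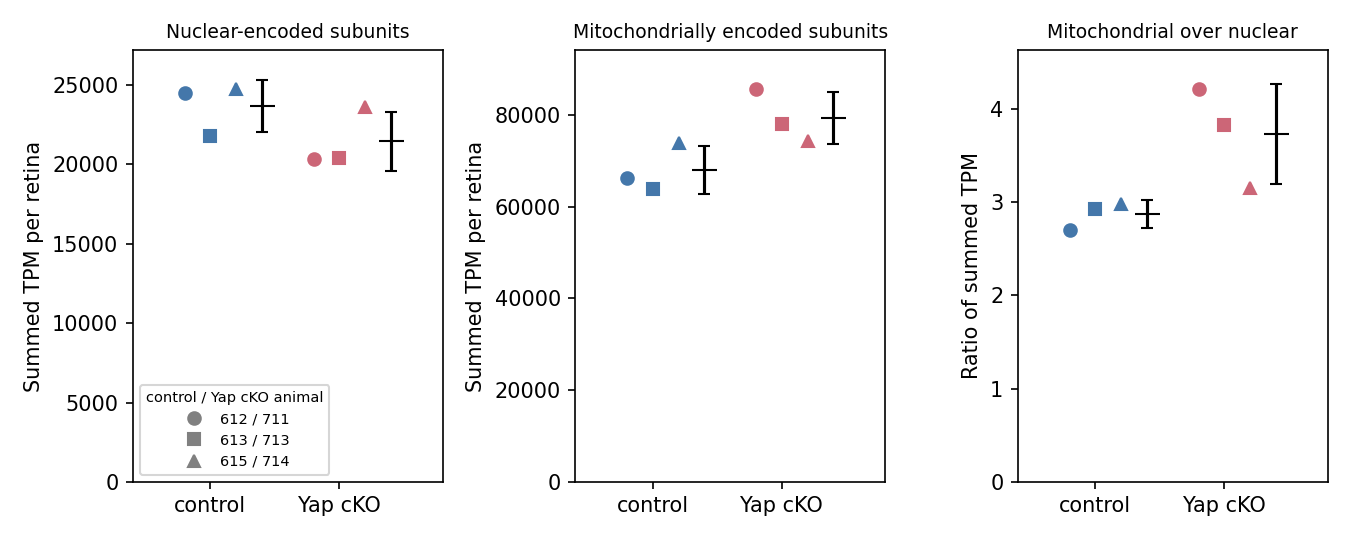
Summed TPM per retina of the 85 nuclear-encoded and the 13 mitochondrially encoded subunits, and their ratio, by group (points, single retinas, with shapes naming the animal and pairing none; black, mean and SD of 3 retinas). The nuclear sums overlap between groups, while the mitochondrial sums in TPM and the ratios do not, with animal YR714 (red triangle) nearest to the controls. Of the 13 mitochondrially encoded genes, 5 add almost no counts to the sums.

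Gene by gene, the nuclear-encoded subunits leaned one way by a small amount. Of the 81 tested, 78 had a log2 fold change below 0, where 49.7% of all tested genes did, and their median was -0.21 against 0.00 over all genes. Uqcrc2 and Cox8a were above 0, the latter below 0 without control animal YR613 (-0.11), without Yap cKO animal YR714 (-0.31) or with sex as a covariate (-0.05). The single call by adjusted p was Cox8b, which also met the study's further criteria of a 1.5-fold change and 5 TPM in 1 group. All criteria together were met by 0.796% of tested genes. The call is 1 lower and 0 higher of 81, beside 0.989% and 0.501% of all tested genes. At an unadjusted p under 0.05 there were 29 of 81, against 21.4% of all genes. The TPM of the 2 groups did not overlap for 17 lower members and 1 higher member (Uqcrc2), where 9.04% of all genes were lower and 15.2% higher without overlap.

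Other short genes leaned the same way. The median fold change of genes of like length was -0.14 (log2) across the members' length bins, and the members lay a further 0.10 below them in the median (median difference -0.10), with 69 of 81 under the median of their bin. With the counts corrected for gene length, the members' median was -0.12, 72 of 81 remained below 0 (49.8% of all genes), and Cox8b was again the single call, while 458 genes (2.76%) were called over the whole table. In single retinas, the members' median relative expression was 0.20, -0.05 and 0.18 (log2, against the mean of all 6) in the controls and -0.18, -0.19 and 0.04 in the Yap cKO retinas. The same quantity for genes of like length was 0.14, -0.02 and 0.10 in the controls and -0.13, -0.10 and 0.04 in the Yap cKO retinas. The part that gene length plays in the members' difference beyond this correction was not tested. Control animal YR613 and Yap cKO animal YR714 decided the number of calls among nuclear members: it was 13 without the former and 18 without the latter, and 1 without any of the other 4. Over all tested genes these fits called 8.84% without YR613, 5.89% without YR714 and 0.291% to 0.923% without one of the others.

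**Figure D2:**
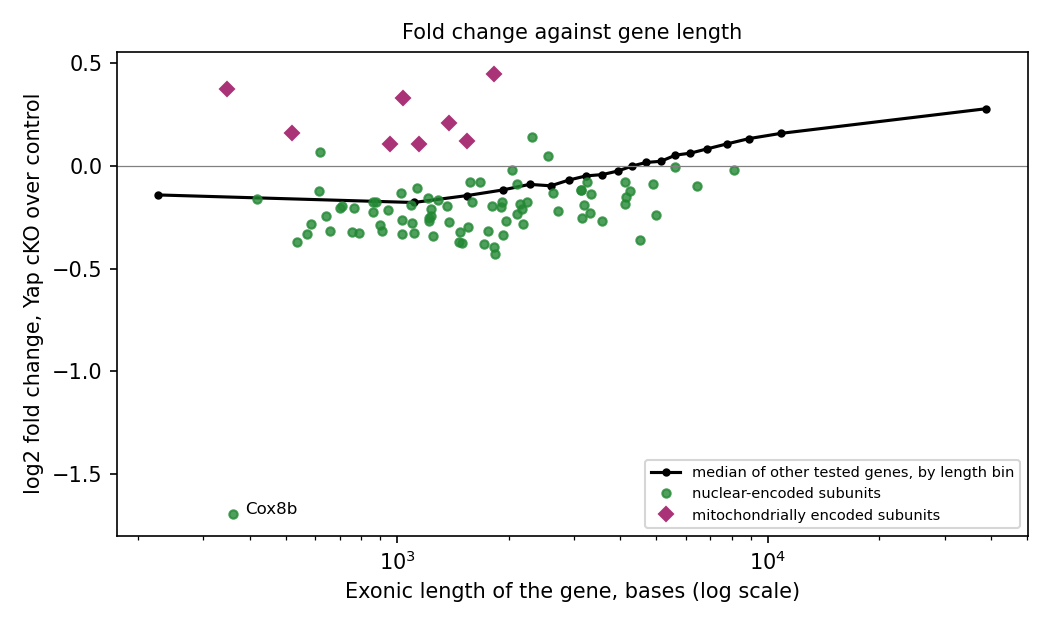
Log2 fold change (Yap cKO over control) of each tested subunit against exonic length in bases (log scale), with the median of the other tested genes in 20 length bins (black). Nuclear-encoded members (green) lie mostly under the black line and mitochondrially encoded ones (purple) above it, and Cox8b stands alone at -1.69.

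The lean was seen in each complex. Genes were placed in complexes by symbol alone. Ndufa4 and Ndufa4l2, described below with the isoform pairs of complex IV, therefore count here in complex I. In complex I, the NADH dehydrogenase, 36 of 37 nuclear genes so placed were below 0 (median -0.22, against -0.14 for genes of like length). Of these, 0 passed the adjusted threshold. Accessory subunits surround the catalytic arm and stabilise it. The 30 genes counted here as accessory, Ndufa4 and Ndufa4l2 among them, were all below 0 with a median of -0.25. The median was -0.16 for the 7 core subunits that carry the flavin and the iron-sulfur clusters. The difference between these medians was not tested, and the accessory genes are shorter (median 1234 bases) than the core genes (2178 bases). Ndufs1, the large iron-sulfur subunit, differed little, with 71.1, 76.0 and 75.6 TPM in the controls and 79.4, 77.5 and 71.9 TPM in the Yap cKO retinas (log2 fold change -0.02, SE 0.069). Ndufs7, an iron-sulfur subunit near the quinone site, was at 177, 127 and 161 TPM in the controls and 89.8, 120 and 162 TPM in the Yap cKO retinas (-0.38, SE 0.211, adjusted p = 0.319). The groups overlapped for both of these core genes. Among accessory subunits the largest differences were in Ndufa7, with 194, 156 and 182 TPM against 130, 135 and 157 TPM (-0.40, adjusted p = 0.125), and Ndufc1 (-0.38, adjusted p = 0.163). For both, the highest Yap cKO retina was YR714 and the lowest control was YR613.

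The 4 subunits of complex II, succinate dehydrogenase, had the smallest lean (median -0.13, 4 of 4 below 0, 0 called), and genes of like length were at -0.07. Sdha was at 424, 458 and 428 TPM in the controls and 452, 432 and 406 TPM in the Yap cKO retinas, which overlapped. In complex III, the cytochrome bc1 complex, 7 of 8 were below 0 (median -0.22, like length -0.14, 0 called). The 2 core proteins parted: Uqcrc1 had a log2 fold change of -0.15 and Uqcrc2 one of 0.05. Uqcrc2 was at 271, 289 and 285 TPM in the controls and at 316, 300.3 and 293 TPM in the Yap cKO retinas, without overlap but by a margin within its SE of 0.067 (adjusted p = 0.704). Uqcrq, a small subunit at the side of cytochrome b, had the largest nuclear difference after Cox8b, with 209, 153 and 214 TPM against 109, 137 and 199 TPM (-0.43, SE 0.219, adjusted p = 0.283), and its groups overlapped.

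In complex V, the ATP synthase, 17 of 17 tested genes were below 0 (median -0.19, like length -0.12, 0 called). The F1 head, which makes ATP, had 5 of 5 below 0 with a median of -0.20. Its subunit Atp5b, at 1421, 1367 and 1380.3 TPM in the controls and 1337, 1299 and 1352 TPM in the Yap cKO retinas, did not overlap between groups, yet the difference was small (-0.12, adjusted p = 0.360). The c-ring genes Atp5g1, Atp5g2 and Atp5g3, which encode the same mature protein, were at -0.09, -0.08 and -0.28. Atp5h, of the peripheral stalk, came closest to the threshold in this complex (-0.37, SE 0.0919, adjusted p = 0.0853), with 372, 328 and 372 TPM in the controls and 288, 275 and 302 TPM in the Yap cKO retinas, which did not overlap. Atp5h shares 22.7% of its 40-base words, the length of a read, with transcripts of other genes.

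**Figure D3:**
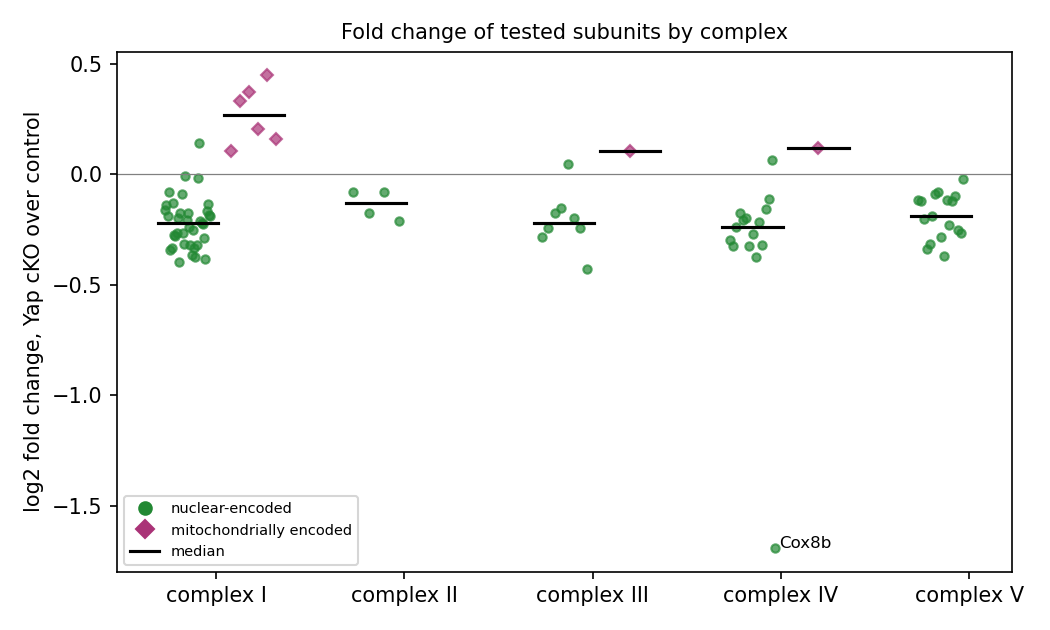
Log2 fold change (Yap cKO over control) of each tested subunit by complex, as placed by its symbol, nuclear-encoded in green and mitochondrially encoded in purple. Points are genes and bars are medians. Nuclear medians run from -0.24 in complex IV to -0.13 in complex II, and the 8 mitochondrially encoded genes all lie above 0.

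Complex IV, cytochrome c oxidase, contains nuclear subunits with paired isoforms, one widespread and one restricted to certain tissues, and it held the single call. Of its 15 tested nuclear genes 14 were below 0, with a median of -0.24 against -0.14 for genes of like length. Cox8b, the isoform of heart and skeletal muscle, was counted 67, 61 and 61 times in the controls and 17, 23 and 23 times in the Yap cKO retinas. This corresponds to 28.2, 24.7 and 22.0 TPM and to 7.39, 7.34 and 9.35 TPM, so that each Yap cKO retina was well under each control. Cox8b (ENSMUSG00000025488, chromosome 7, 140898945 to 140900446, minus strand, GRCm38) fell by 1.69 on the log2 scale (SE 0.215, edgeR quasi-likelihood test, adjusted p = 0.00725). It was called in 6 of 6 fits that left out 1 retina, with log2 fold changes between -1.83 and -1.58, and after the correction for gene length (-1.59, adjusted p = 0.00308). None of its 40-base words occurs in the transcripts of another gene.

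Cox8a, the widespread partner of Cox8b, was at 1063, 658 and 877 TPM in the controls and 727, 755 and 1353 TPM in the Yap cKO retinas (log2 fold change 0.07, SE 0.26, adjusted p = 0.899). Animal YR714 was the highest of the 6 and the groups overlapped. Of the summed TPM of the pair, Cox8b made up 2.89% ± 0.64 in the controls and 0.885% ± 0.17 in the Yap cKO retinas (SD, n = 3), so it was the minor isoform in both. Cox6a1 varied in the same way as Cox8a, with 640 TPM, 568 TPM and 575 TPM in the controls and 361 TPM, 410 TPM and 831 TPM in the Yap cKO retinas, where YR714 was again highest (-0.21, adjusted p = 0.682). Without animal YR714 it was called lower (-0.70, adjusted p = 0.00918), and without animal YR711 its fold change was 0.01.

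No other restricted isoform passed the test, while all 4 others tested were below 0. Over the 5 restricted isoforms tested the median was -0.33, and genes of like length were at -0.14. Cox4i2, the isoform linked to oxygen sensing, was at 178, 150 and 168 TPM in the controls and 137, 126 and 149 TPM in the Yap cKO retinas (-0.33, adjusted p = 0.149), just without overlap. Its share of the Cox4 pair stayed close, at 16.1% ± 0.38 and 15.9% ± 0.41, since Cox4i1 was lower by a similar amount (-0.30, adjusted p = 0.147). The muscle isoform Cox7a1 was at 17.3, 18.8 and 21.2 TPM and at 18.1, 12.5 and 15.9 TPM (-0.37, adjusted p = 0.274). Cox6b2 was at 16, 17.1 and 16.7 TPM and at 12.9, 11.4 and 17.2 TPM (-0.33, adjusted p = 0.303). Ndufa4l2, the hypoxia-induced relative of Ndufa4, made up 0.71% of its pair in both groups. Cox7a2l, which joins complexes III and IV into supercomplexes, had the second smallest adjusted p in complex IV (0.0984) and a log2 fold change of -0.32.

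**Figure D4:**
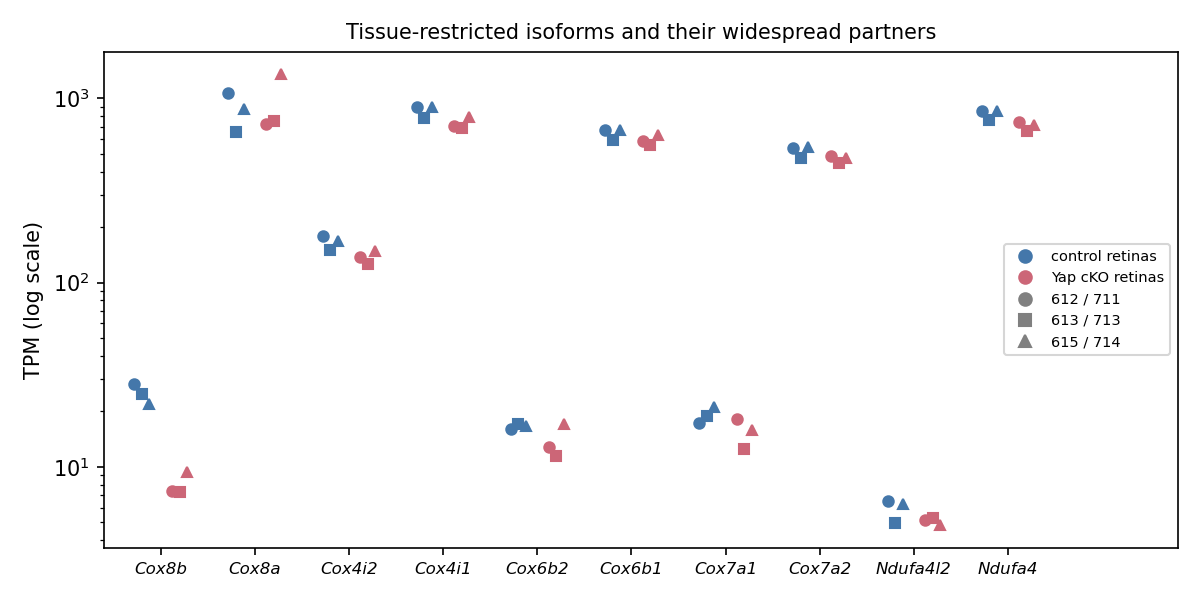
TPM per retina (log scale) of tissue-restricted isoforms, each left of its widespread partner, in control (blue) and Yap cKO (red) retinas, with shapes naming the animal. Cox8b falls from 22.0 to 28.2 TPM in the controls to between 7.34 and 9.35 TPM, while the other isoforms overlap or nearly touch between groups.

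Lists of markers of other cell types were read beside Cox8b, and only some differed between groups. Sums of markers of cones, horizontal, ganglion, mural and endothelial cells, microglia and lens overlapped between groups, with 0 calls in each list. Their ratios of means, Yap cKO over control, ran from 0.27 for lens to 1.16 for horizontal cells. Of 11 markers of skeletal and extraocular muscle, 3 had enough counts to test and 0 were called, and their summed level was 16.9 to 17.9 TPM in the controls and 11.3 to 14.8 TPM in the Yap cKO retinas. Most of that sum was Mylpf, a fast myosin light chain, at 10.04 ± 0.38 and 6.88 ± 1.44 TPM (SD, n = 3), whereas the defining myosins Myh1, Myh2 and Myh4 had means under 0.1 TPM in both groups. The 6 markers of cardiac and slow muscle summed to 9.96 to 11.3 TPM in the controls and 10.7 to 12.01 TPM in the Yap cKO retinas. The 6 genes of melanin pigment cells summed to 71.2 to 78.5 TPM and 17.2 to 48.3 TPM, with Pmel called lower. The 8 markers of the ciliary body and retinal margin summed to 197 to 215 TPM and 151 to 184 TPM, with Optc, which encodes opticin of the non-pigmented epithelium, called lower (-3.41, adjusted p = 0.00243). Without Optc that list overlapped between groups, at 151 to 167 TPM and 149 to 175 TPM, and 3 of its 7 tested genes were above 0. The largest part of that remaining sum was Mab21l2, at means of 90.4 TPM in the controls and 104 TPM in the Yap cKO retinas (0.15). Opn4 (0.05) and Cdh1 (0.03) were also above 0. Zic1 (-0.46), Wfdc1 (-0.43) and Col9a1 (-0.24) were below 0 and uncalled. The 7 markers of pigment epithelium summed to 677 to 755 TPM and 242 to 735 TPM. Of 6 fibroblast markers 4 were tested. Col1a2, at means of 3.52 TPM in the controls and 0.81 TPM in the Yap cKO retinas, was called lower (-2.16, edgeR adjusted p = 0.00236). The other tested ones, Col1a1, Col3a1 and Pdgfra, were at 0.08, -0.0042 and -0.05. The part of these cell types in the difference of Cox8b was not tested. Among cells of the retina, 0 of 11 rod markers were called (median -0.08, like length 0.02) and their sums overlapped. The 10 Müller markers had 0 calls (median -0.18, like length -0.01), with 6 below 0 and 4 above 0, among the latter Kcnj10 (0.28). Their sums did not overlap, at 6989.7 to 7211 TPM in the controls and 6133 to 6549.5 TPM in the Yap cKO retinas. These Müller sums rest on a few abundant genes. Control and Yap cKO means were 3017 and 2711 TPM for Glul, 1298 and 982 for Apoe, and 936 and 760 for Rlbp1. The similarly abundant Dkk3 was at 1302 and 1357 TPM. The 7 amacrine markers were all above 0 with 0 calls (median 0.14, like length 0.05) and summed to 724 to 815 TPM and 885 to 935 TPM. Of 8 bipolar markers 5 were above 0 and 3 below 0, and Grm6 was the single call, higher (0.46, edgeR adjusted p = 0.0249). Their sums overlapped, at 1177 to 1245 TPM in the controls and 1226 to 1373 TPM in the Yap cKO retinas.

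The upstream sequences of 66 of the 84 nuclear symbols were matched to RefSeq promoters (GRCm38.p6, 250 bases before to 50 after the start). The letters GCGCNTGCG of the factor NRF1, a known regulator of respiratory genes, were present on either strand in 33.8% of the 71 member promoters and in 6.31% of all 32851 promoters. The letters AAGATGGCG of YY1 were present in 9.86% and 1.4%, and those of ETS factors, CCGGAAGT, in 7.04% and 3.89%. GGAATG, the core bound by the TEAD partners of YAP, was present in 11.3% and 14.7%, and the TATA box TATAAA in 11.3% and 13.6%. The 23 tested members with the NRF1 letters centred on a log2 fold change of -0.21, and so did the 42 matched members without them (medians). The promoters of 3 genes are shown because they set the called gene beside its uncalled partner and beside Cox6a1, the most abundant matched member with the NRF1 letters. They are, 5′ to 3′, Cox8b at chr7:140900397-140900696, Cox8a at chr19:7217567-7217866 and Cox6a1 at chr5:115348909-115349208, all on the minus strand, and capitals mark any of the 5 sets of letters.
Cox8b: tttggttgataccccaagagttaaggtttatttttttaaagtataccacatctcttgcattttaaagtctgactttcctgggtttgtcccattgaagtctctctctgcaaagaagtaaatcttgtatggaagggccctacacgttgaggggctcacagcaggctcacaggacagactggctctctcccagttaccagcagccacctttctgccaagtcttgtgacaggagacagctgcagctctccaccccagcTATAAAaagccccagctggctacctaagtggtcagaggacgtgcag
Cox8a: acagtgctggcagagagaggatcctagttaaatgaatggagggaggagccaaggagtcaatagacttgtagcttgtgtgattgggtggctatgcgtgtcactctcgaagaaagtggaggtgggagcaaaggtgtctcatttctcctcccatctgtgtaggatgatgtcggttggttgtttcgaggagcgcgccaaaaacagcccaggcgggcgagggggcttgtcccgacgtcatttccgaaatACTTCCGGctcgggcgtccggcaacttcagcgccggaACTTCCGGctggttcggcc
Cox6a1: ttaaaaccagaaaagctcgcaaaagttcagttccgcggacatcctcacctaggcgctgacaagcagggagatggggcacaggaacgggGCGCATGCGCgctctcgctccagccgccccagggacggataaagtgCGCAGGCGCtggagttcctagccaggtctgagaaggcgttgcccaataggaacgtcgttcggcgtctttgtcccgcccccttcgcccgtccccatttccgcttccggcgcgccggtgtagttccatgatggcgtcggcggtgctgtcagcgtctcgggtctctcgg
Capitals in Cox8b are TATAAA, beginning at base 5 after the annotated start. Those in Cox8a are ETS letters on the reverse strand, at -6 and 32, and those in Cox6a1 are NRF1 letters, with an overlapping match on both strands from -162 and a match at -116. A match of letters is not evidence of binding.

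On the mitochondrial genome, 8 of the 13 protein-coding genes could be tested, and all 8 had a log2 fold change above 0, where 50.3% of all tested genes did (median 0.18). Of these, 0 were called by the edgeR quasi-likelihood test, beside 1.49% of all genes, and 2 had an unadjusted p under 0.05. Groups did not overlap for 5 of 8, all higher in the Yap cKO retinas, where 15.2% of all genes were higher without overlap. Genes of like length had a median of -0.14, so the mitochondrially encoded subunits stood 0.33 above them in the median, and after the correction for length 8 of 8 were above 0 (50.2% of all genes; median 0.31). The 8 genes come from a few long precursor transcripts of the same genome and are not independent.

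mt-Nd5, a proton-pumping subunit of complex I (MT, 11742 to 13565), differed most. It was at 3864, 4405 and 4708 TPM in the controls and 6755, 6425 and 5262 TPM in the Yap cKO retinas, without overlap (log2 fold change 0.45, SE 0.101, adjusted p = 0.0669). After correcting counts for gene length mt-Nd5 was called (0.57, adjusted p = 0.0352), as it was without control animal YR613 or without Yap cKO animal YR714. mt-Nd2 was at 5623, 6167 and 8611 TPM and at 9277, 9149.8 and 8253 TPM (0.33, adjusted p = 0.216), and here control animal YR615 lay above Yap cKO animal YR714. mt-Nd6, the single subunit encoded on the other strand, was at 1523, 1333 and 1590.2 TPM and at 1628, 1697 and 1847 TPM (0.16, adjusted p = 0.372). It overlaps mt-Nd5 in antisense, and the counts were made by strand. The most abundant genes differed least. mt-Cytb, the membrane core of complex III, was at 20061, 18440.4 and 20982 TPM and at 24048, 21095 and 21524 TPM (0.10, adjusted p = 0.517). mt-Co1, which holds the oxygen-reducing centre of complex IV, was at 18070.5, 17662 and 17727 TPM and at 22446, 19678 and 18403 TPM (0.12, adjusted p = 0.446). mt-Nd1 and mt-Nd4 were at 0.11 and 0.21 on the log2 scale. mt-Nd3, at 65.3 to 119 TPM in the controls and 111 to 157 TPM in the Yap cKO retinas, was at 0.37 (adjusted p = 0.319).

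The other 5 mitochondrial genes carried almost no counts. mt-Co2 had 1, 2 and 3 counts in the controls and 1, 2 and 1 in the Yap cKO retinas, mt-Co3 at most 2, and mt-Atp6 had 3 counts in 1 control and 0 elsewhere. mt-Atp8 and mt-Nd4l had 0 counts in all 6 retinas. Of the 40-base words of mt-Co2, 100% occur in transcripts of other genes, and the figure was 99.9% for mt-Co3, 99.5% for mt-Atp6, 98.8% for mt-Nd4l and 98.1% for mt-Nd3. Nearly all of these words lie in adjacent unprocessed pseudogenes on the minus strand of chromosome 1. By contrast mt-Cytb, with 144581 counts or more in each retina, shares 1.36% of its words, and mt-Nd1 and mt-Nd6 share none. The counting left out reads that align to more than 1 place. mt-Atp8 is an exception in this order, with 2.42% shared words and 0 counts. The transcripts used here annotate no gene over the chromosome 1 stretch between the copies of mt-Atp6 and mt-Co2. mt-Atp8 (MT, 7766 to 7969) also overlaps mt-Atp6 (7927 to 8607) on the same strand, and the reason for its 0 counts was not tested. The 5 genes are without a usable level here, and 0 counts do not show that they were silent.

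**Figure D5:**
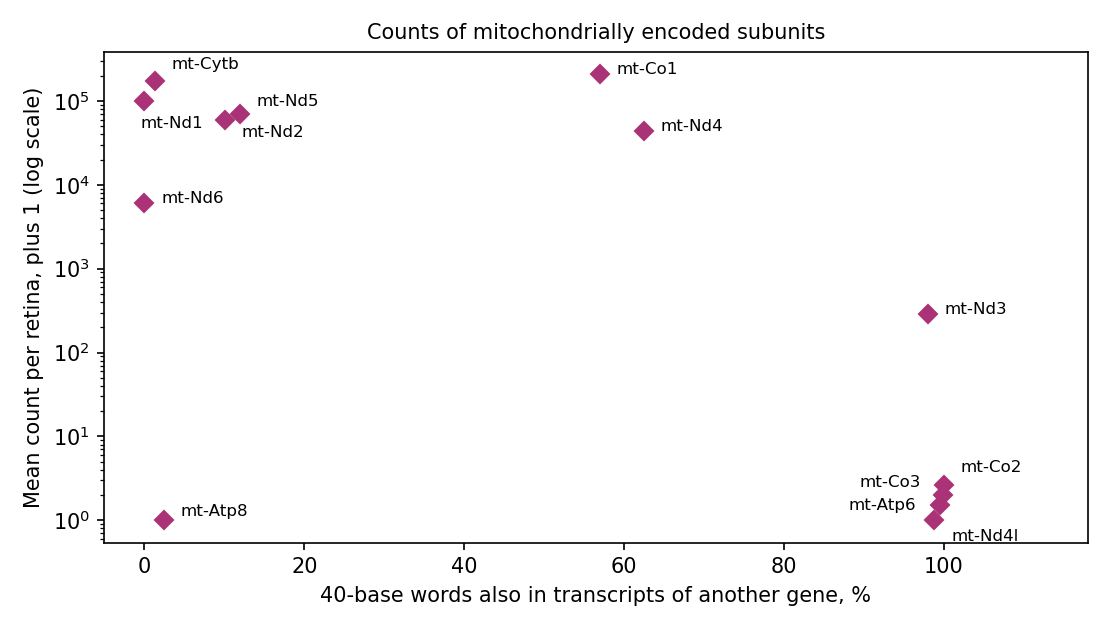
Mean count per retina plus 1 (log scale) of the 13 mitochondrially encoded subunits against the share of their 40-base words found in transcripts of another gene (%). The genes at 98.8% or more have at most 3 counts in any retina, mt-Nd3 at 98.1% has 150 to 475 counts, and mt-Atp8 has 0 counts at 2.42%.

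The opening bases of mt-Co2 and mt-Cytb are printed beside their closest copies to set a gene almost without counts beside one with many, 5′ to 3′, from GENCODE transcripts (GRCm38), with capitals at differing bases. The 120 bases are MT:7013-7132 and, for the copy Gm28661, chr1:24615446-24615565 on the minus strand, and MT:14145-14264 and, for the copy Gm11410, chr4:80003989-80004108, on the plus strand.
mt-Co2: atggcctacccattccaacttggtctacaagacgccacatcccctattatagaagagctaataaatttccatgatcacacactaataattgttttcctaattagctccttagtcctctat
Gm28661: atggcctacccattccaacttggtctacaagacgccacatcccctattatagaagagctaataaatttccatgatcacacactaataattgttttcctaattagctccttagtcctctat
mt-Cytb: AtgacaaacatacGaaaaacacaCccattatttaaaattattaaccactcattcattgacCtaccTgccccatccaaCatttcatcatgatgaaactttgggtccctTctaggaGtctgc
Gm11410: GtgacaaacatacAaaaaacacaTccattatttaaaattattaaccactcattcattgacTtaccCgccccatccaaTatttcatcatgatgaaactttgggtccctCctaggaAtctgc
mt-Co2 and Gm28661 match at 681 of 681 aligned bases. mt-Cytb and Gm11410 differ at 82 of 1143, with 8 of those in the stretch shown. With only the 5 tested mitochondrial genes that share under 15% of their words, the median log2 fold change was 0.16 and 5 of 5 were above 0. With the 58 tested nuclear members that share under 5%, the nuclear median was -0.23 and 55 of 58 were below 0.

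Genes around the chain were read from 4 lists. Of 46 tested assembly factors, 0 were called (median -0.07, like length -0.09). The smallest p-values belonged to Cmc1 (-0.34, adjusted p = 0.133) and Ndufaf2 (-0.30, adjusted p = 0.154), which act in building complexes IV and I. Of 18 other chain components and carriers, 0 were called (median -0.16, like length -0.06). Among them Etfb, of the electron transfer flavoprotein, was at -0.49 (adjusted p = 0.136) and Slc25a4, an ADP/ATP carrier, at -0.23 (adjusted p = 0.184). Of 23 genes that express the mitochondrial genome or drive mitochondrial biogenesis, 0 were called (median -0.04, like length -0.0005). In that list Esrrg and Esrrb, nuclear receptors that act on genes of energy metabolism, lay on opposite sides, Esrrg at 75.7 ± 9.83 TPM against 107 ± 12.04 TPM (0.45, adjusted p = 0.0649, called after the length correction at 0.39, adjusted p = 0.0307) and Esrrb at 293 ± 61.7 against 212 ± 46.9 TPM (-0.53, adjusted p = 0.15; SD, n = 3).

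Of 18 tricarboxylic acid cycle genes 2 were called, both lower, beside 0.989% of all tested genes. Idh2, the NADP-dependent isocitrate dehydrogenase of the mitochondrion, fell from 30.4 ± 0.44 to 19.5 ± 0.39 TPM (-0.70, SE 0.0887, adjusted p = 0.00737). Suclg2, the GTP-forming subunit of succinyl-CoA ligase, fell from 5.78 ± 0.46 to 3.71 ± 0.22 TPM (-0.69, SE 0.121, adjusted p = 0.0297). Both lost the call in some fits that left out 1 retina: Idh2 without control animal YR615 (adjusted p = 0.0566), and Suclg2 without control animal YR612 or YR615 or without Yap cKO animal YR711 or YR713 (adjusted p between 0.0638 and 0.154). The list as a whole did not lean, with 10 of 18 below 0 and a median of -0.03 (like length -0.03).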

How the data were processed

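Stranded, poly(A)-selected mRNA libraries of 6 mouse retinas, described by the study as independent biological replicates, were sequenced in pairs of 40 bases. The authors aligned reads to GRCm38 with STAR 2.7.3a and deposited raw counts per gene from featureCounts 1.6.2 (pairs counted by strand, reads with several alignments left out), with the exonic length of each gene. TPM was computed here from these counts and lengths. Genes were tested with edgeR 4.0.16 (quasi-likelihood test, filterByExpr, TMM factors, Benjamini-Hochberg adjustment over 16575 genes). Genes of like length were the other tested genes in 20 length bins. The length correction fitted a loess curve (span 0.3) per retina. Words of 40 bases were looked up in the GENCODE vM21 transcripts. The fit was tested on simulated data. DESeq2 1.42.0, other size factors, no filter, sex as a covariate and leaving out each retina were alternatives, and the set of members with few shared words and sex joined to the length correction were chosen after seeing the data. The members and lists were chosen with earlier results of these data known. Genes named were Yap1, called members, the 6 nuclear members of largest change at 5 TPM or more, all mitochondrially encoded members, the top member of each complex, paired isoforms, core, F1 and c-ring subunits, and the leading genes of each other list. Atp5h, Cox7a2l and the cell type markers singled out were named after their values were seen. Of the genes so named, 1 is not reported here.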

Additional observations from a re-analysis of the deposited data

How the results depend on the processing

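No paired analysis was possible because the animal numbers of the 2 groups are not shared. The median log2 fold change of nuclear members stayed below 0 under every alternative run, between -0.29 and -0.12, and that of mitochondrially encoded members above 0, where it moved to 0.31 with the length correction and 0.34 with that correction and sex as a covariate. Counts of calls depended on the test. DESeq2 called 892 genes, 4 nuclear members, 1 mitochondrial member and 4 other pathway genes. The edgeR likelihood ratio test called 1025 genes, 3 nuclear members and 1 mitochondrial member. Without a filter on low counts there were 1865 genes, 19 nuclear members, 2 mitochondrial members and 6 other pathway genes. The length correction gave 458 genes (2.76%), 1 nuclear member (Cox8b), 1 mitochondrial member and the other pathway genes Idh2, Suclg2 and Esrrg. Sex as a covariate gave 151 genes and 1 other pathway gene, and both together 421 genes, 1 mitochondrial member and 4 other pathway genes. A count left out for a fit does not mean 0. Leaving out 1 retina gave 49 to 1490 genes (1490 without control animal YR613, 992 without Yap cKO animal YR714, 49 without control animal YR615), 1 to 18 nuclear members, 0 to 1 mitochondrial members and 0 to 5 other pathway genes. The cause was not tested. Among the members named, the direction reversed near 0 for Cox8a with sex as a covariate (-0.052). It also did so for Atp5g2 with the length correction (0.039) and with sex added to it (0.0014). Members not named reversed too: of the 81 tested nuclear members, 78 were below 0 in the main fit and 72 with the length correction. Leaving out 1 retina moved Cox8a from -0.31 (without YR714) to 0.27, Cox6a1 from -0.70 (without YR714) to 0.0093 (without YR711), Ndufs1 from -0.045 to 0.0048 (without YR714) and Atp5g2 from -0.15 to 0.0021 (without YR711). With 3 retinas per group, calls rest on few samples.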

Other observations

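The 2 ribosomal RNA genes of the mitochondrial genome, which are not members, lay on the other side of 0 from its protein-coding genes. mt-Rnr1 was at 2659, 2302 and 3111 TPM in the controls and 1876, 2186 and 2319 TPM in the Yap cKO retinas (log2 fold change -0.40, SE 0.129, edgeR adjusted p = 0.138), and mt-Rnr2 at -0.18 (adjusted p = 0.455). In poly(A)-selected libraries these are residual reads, and the difference from the protein-coding genes was not tested. The genes were chosen after their values were seen.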
